A study of Mus musculus with 4 samples.

Results

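Foam cells are macrophages filled with lipid droplets, and 10 genes of lipid handling that mark them were followed here: Plin2, Spp1, Apoe, Apoc1, Trem2, Gpnmb, Cd36, Abcg1, Fabp5 and Lipa. They were chosen by name, with earlier results of these data known, as 10 of the 32285 genes in each count table. All 10 had UMIs in all 4 sections. Lungs of C57BL/6J mice were compared between a Vaped (V) and a Non-Vaped (NV) group, each of 1 male and 1 female. V mice breathed aerosol of Peach Ice juice (70VG/30PG) from JUUL pens in whole body chambers for 4 h per day, 5 days per week over 9 weeks, starting at about 8 weeks of age, whereas NV mice received none. Each lung gave 1 Visium section, cut at the upper pulmonary branches and holding mostly parenchyma by the rule below. A spot is a small region that can hold several cells, and a UMI stands for 1 captured mRNA molecule.

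The sections held 473 to 2053 spots and 6957392 to 34308556 UMIs. The tissue on them differed between mice, and this touches each comparison of V with NV below. A spot was called parenchyma when 6 alveolar and capillary genes reached 50% of their level over all spots, and upper airway otherwise. By this rule 158 of 842 spots of the NV male, 125 of 473 of the NV female and 433 of 2053 of the V female were upper airway, but 1 of 1565 of the V male. Levels are UMIs per 1000000 UMIs (CPM), and where 2 values are given for a group, the male comes before the female. Summed over 9 adipocyte genes the level was 846 and 7442 CPM in NV and 51.0 and 6729 CPM in V. Ucp1, the thermogenic gene of brown fat, was at 859 CPM in the V female and between 0.107 and 1.01 CPM in the other mice. The 8 cardiac muscle genes were at 22.2 CPM in the V male and between 6296 and 11414 CPM in the others. Alveolar macrophage genes were found in every section, with 10 of 10 detected and a summed level between 362 and 768 CPM. V is set against NV for them below. In bulk sums of this kind, fewer cells of a type and less RNA per cell cannot be told apart. Spot barcodes mark positions on the slide, so the 277 to 1167 barcodes that pairs of sections shared do not mean shared tissue.

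Alveolar macrophages clear surfactant lipid and take up oxidized lipoprotein and debris. Fatty acids enter through CD36 and are carried by fatty acid binding proteins, lipoprotein cholesterol is freed in the lysosome by acid lipase, surplus lipid is stored in droplets coated by perilipin 2, and cholesterol leaves through ABCG1 to particles that carry apolipoprotein E. TREM2, GPNMB and osteopontin mark lipid-laden macrophages in many tissues, but most of these genes are also used by other cells: adipocytes make PLIN2 and FABP5, capillary endothelium CD36, and type 2 cells FABP5.

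The genes lay on 7 chromosomes of GRCm38, and 1 pair of members were neighbours. Apoe (chromosome 7, 19696109 to 19699188) and Apoc1 (chromosome 7, 19689481 to 19692660) are read from the minus strand with 3448 bases between them, and both code for apolipoproteins. The RefSeq table of GRCm38.p6 held promoter windows for 7 of the 10 members, and not for Apoc1, Abcg1 and Fabp5. The 250 bases before the start of Plin2, Apoe and Spp1 are given here. These are the members with a window that were called in spots with the adipocyte gene Adipoq below. Capitals mark AGGTCA, the half-site of nuclear receptors that sense fatty acids and sterols, on either strand.
Plin2 (chr4:86670060-86670309 on the minus strand): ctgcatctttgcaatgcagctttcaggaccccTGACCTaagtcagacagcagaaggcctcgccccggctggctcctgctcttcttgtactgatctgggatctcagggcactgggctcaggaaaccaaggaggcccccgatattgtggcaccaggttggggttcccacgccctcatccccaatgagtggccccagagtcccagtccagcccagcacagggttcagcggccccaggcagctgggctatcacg
Apoe (chr7:19699189-19699438 on the minus strand): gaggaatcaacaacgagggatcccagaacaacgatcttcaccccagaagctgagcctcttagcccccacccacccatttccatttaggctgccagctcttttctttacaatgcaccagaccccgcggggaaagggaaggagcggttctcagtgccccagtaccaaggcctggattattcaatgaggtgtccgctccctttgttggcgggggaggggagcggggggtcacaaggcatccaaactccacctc
Spp1 (chr5:104434861-104435110 on the plus strand): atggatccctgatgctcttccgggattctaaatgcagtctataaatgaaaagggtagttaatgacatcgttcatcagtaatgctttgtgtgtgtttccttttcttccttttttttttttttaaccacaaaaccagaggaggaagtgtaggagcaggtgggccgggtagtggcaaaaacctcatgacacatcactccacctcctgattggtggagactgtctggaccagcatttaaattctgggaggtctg
AGGTCA was found once in the window of Plin2, once in that of Trem2 and once in that of Cd36, and not in the windows of Apoe and Spp1. Of all 32536 windows, 14.04% held it. The direct repeat of this half-site with 1 base between (DR1), a match of which holds the half-site too, was in 0.0338% of windows and the E-box CACGTG in 6.04%, and neither was in a window of the 7 members. Matches describe letters in these windows and not sites that were bound.

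Lipid storage was followed by Plin2, which codes for the droplet coat protein perilipin 2. Over whole sections Plin2 was at 94.3 and 138 CPM in NV and at 118 and 245 CPM in V. The V female stood above the other mice, and the V male lay between the NV mice. Within the parenchyma Plin2 was at 102 and 125 CPM in NV and 118 and 169 CPM in V, so the V female stood less far from the rest. The log2 fold change of V over NV was 0.66 (SE 0.51) in whole sections and 0.36 (SE 0.24) in the parenchyma.

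Of the apolipoprotein genes, Apoe was lower in both V mice than in both NV mice, and Apoc1 was higher in the females of both groups. Apoe, the main ligand of lipoprotein receptors made by macrophages, was at 1265 and 1811 CPM in NV and at 899 and 1264 CPM in V. The groups did not overlap, although the V female and the NV male differed by little. Of all genes tested, 14.4% were likewise lower in both V mice. In the parenchyma Apoe was at 1232 and 1454 CPM in NV and 899 and 1182 CPM in V. The groups were again without overlap, with 17.1% of all genes lower in both V mice. Apoc1, which codes for a small apolipoprotein that inhibits lipoprotein uptake, was at 55.8 and 125 CPM in NV and at 58.1 and 348 CPM in V. Both females stood above both males, and the V female was the highest. The adipocyte genes were also higher in both females than in both males, so sex and fat on the section cannot be told apart here. In the parenchyma Apoc1 was at 55.2 and 95.5 CPM in NV and 58.1 and 154 CPM in V. The log2 fold change of V over NV was −0.51 (SE 0.39) for Apoe and 1.22 (SE 1.02) for Apoc1 in whole sections.

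Spp1 and Cd36 were highest in the V male. Spp1, which codes for the secreted phosphoprotein osteopontin, was at 102 and 111 CPM in NV and at 344 and 58.1 CPM in V. The V male thus lay above and the V female below both NV mice, and the same held in the parenchyma, at 125 and 174 CPM in NV and 344 and 89.8 CPM in V. Cd36, the fatty acid and oxidized lipoprotein receptor, was at 886 and 962 CPM in NV and at 1562 and 838 CPM in V. It had the same order as Spp1, with the V mice on both sides of the NV mice. V over NV was 3.38-fold for Spp1 between the males and 0.523-fold between the females, with log2 intervals of 1.66 to 1.86 and −1.06 to −0.81 that cover counting error only. For Cd36 the ratios were 1.76-fold between the males and 0.871-fold between the females. Neutrophil genes were also highest in the V male, with 5 of 5 detected and a summed level of 588 CPM, against 76.5 CPM in the V female and 153 and 162 CPM in NV. Their part in the Spp1 and Cd36 levels was not tested.

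The surface proteins of lipid-laden macrophages, Trem2 and Gpnmb, were sparse. Trem2, which codes for the lipid-sensing receptor, gave 62 and 58 UMIs in NV and 77 and 221 UMIs in V, or 6.61 and 8.34 CPM against 6.48 and 6.44 CPM. The V mice were below the NV mice, as for 14.4% of all genes, by a margin smaller than the difference between the NV mice. No spot held more than 3 UMIs of Trem2. Gpnmb, a membrane glycoprotein of cells with loaded lysosomes, was at 15.2 and 10.2 CPM in NV and 16.5 and 13.2 CPM in V, and the groups overlapped. The log2 fold change of V over NV was −0.23 (SE 0.29) for Trem2 and 0.19 (SE 0.26) for Gpnmb.

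Genes of cholesterol release, fatty acid transport and lysosomal lipolysis varied little over whole sections. Abcg1, the sterol exporter, was at 44.6 and 46.9 CPM in NV and at 49.9 and 58.6 CPM in V. Fabp5, the epidermal fatty acid binding protein gene, was at 283 and 371 CPM in NV and 372 and 429 CPM in V. Lipa, the lysosomal acid lipase gene, was at 63.2 and 58.4 CPM in NV and 62.8 and 66.8 CPM in V. V lay above NV for Abcg1 and Fabp5 in whole sections, as for 12.6% of all genes, whereas Lipa overlapped. The NV female and the V male were close for both genes. In the parenchyma the groups overlapped for all 3 genes, with Abcg1 at 51.6 and 66.3 CPM in NV and 49.9 and 87.0 CPM in V.

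**Figure D1:**
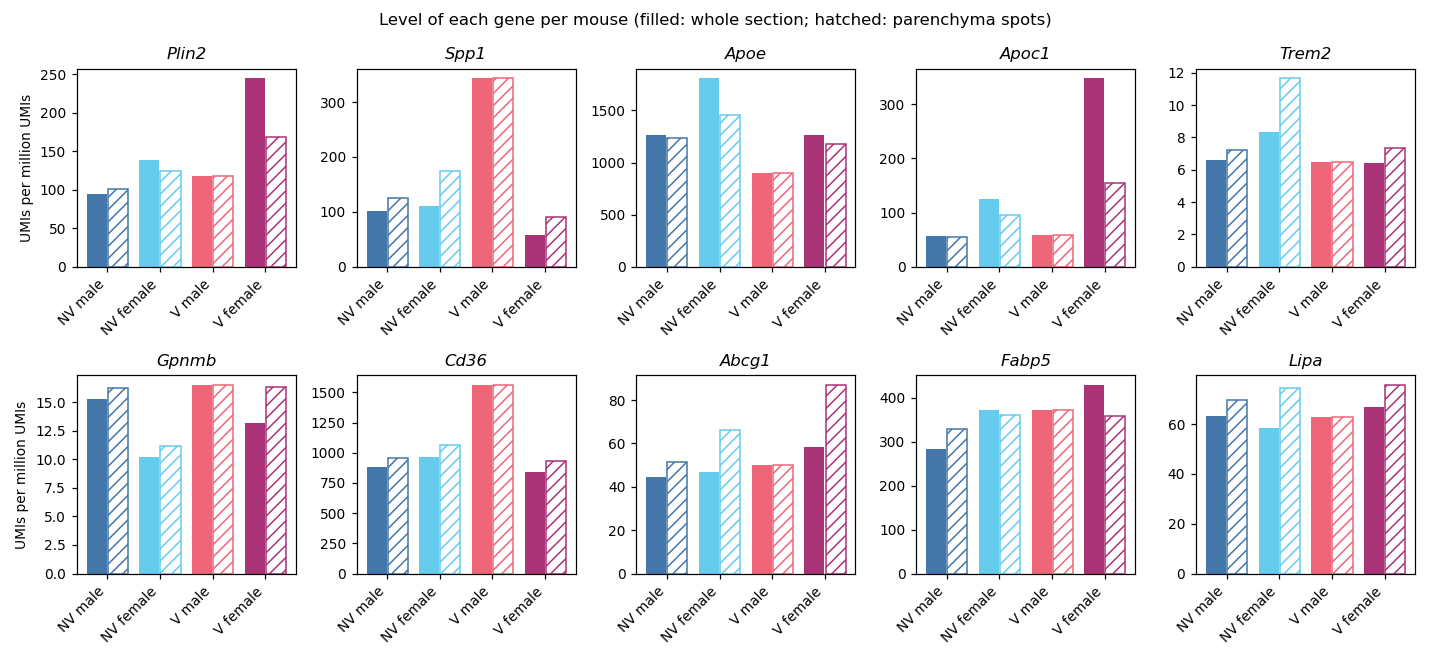
Level of each of the 10 genes in the 4 mice, in CPM on a linear axis that starts at 0. Filled bars are whole sections and hatched bars parenchyma spots, 1 section per mouse, so there are no error bars. Apoc1 was highest in the V female (348 CPM) and Spp1 in the V male (344 CPM).

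To ask whether vaping changed these genes, UMIs were summed per mouse and tested with edgeR's quasi-likelihood test over all genes. Genes were called where the p adjusted by Benjamini-Hochberg was under 0.05 and the log2 fold change exceeded 0.25 in either direction. None of the 10 members was called in whole sections, where 0 of 14570 genes were called (0%), 248 genes had an unadjusted p under 0.05 (1.7%), and none of the latter was a member. DESeq2 called 8 genes and limma 0, again without a member. The adjusted p of each member was 0.9997, and the median log2 fold change over the members was 0.26, against 0.03 over all genes tested. The interval of the difference was wide for most members, from −1.56 to 3.998 for Apoc1 and from −1.35 to 2.97 for Spp1, and narrowest for Lipa, from −0.43 to 0.58. Both V mice lay above both NV mice for 2 members (Abcg1 and Fabp5), as for 12.6% of all genes, and below them for 2 (Apoe and Trem2), as for 14.4%.

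In the parenchyma none of the 10 members was called either, and 0 of 14348 genes were (0%), with 380 genes (2.65%) and no member at an unadjusted p under 0.05. DESeq2 called 9 genes and limma 0, and neither called a member. The log2 fold changes were −0.35 (SE 0.22) for Apoe, 0.54 (SE 0.61) for Spp1 and 0.53 (SE 0.52) for Apoc1. Gpnmb was the 1 member with both V mice above both NV mice (14.4% of all genes), at 16.5 and 16.3 CPM against 16.2 and 11.1 CPM, and Apoe the 1 member with both below (17.1%). Single mice decided the values of Spp1 and Apoc1. Leaving out either V mouse leaves 1 V mouse, so these fits give sizes only. Without the V female, Spp1 was at a log2 fold change of 1.55 in whole sections and 1.205 in the parenchyma. Without the V male it was at −0.80 and −0.69. Apoc1 was at 1.09 in the parenchyma without the V male and at −0.36 there without the V female.

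Genes of the same pathways were not called either in V against NV. In both sets of spots 0 of 12 sterol efflux and trafficking genes, 0 of 11 uptake genes, 0 of 14 lipid droplet and lipolysis genes and 0 of 13 lysosomal genes were called. The nearest to a call among the sterol genes in whole sections was Pltp, the phospholipid transfer protein gene, at a log2 fold change of 0.56 (SE 0.30). Syk, which codes for the kinase that acts after Trem2, was at −0.75 (SE 0.20) in whole sections and −0.68 (SE 0.21) in the parenchyma, with adjusted p of 0.9997 and 0.9992. Macrophage genes were not called, in 0 of 10 alveolar and 0 of 10 interstitial cases, but the 2 lists leaned in opposite directions. The median log2 fold change was 0.57 and 0.61 for alveolar genes in whole sections and parenchyma, and −0.87 and −0.77 for interstitial genes. Their part in the members' values was not tested.

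Between the regions of the same section several members did differ. Levels were compared in the 3 mice with both regions, with the mouse as a block. Their values are given in the order NV male, NV female and V female. In upper airway spots Apoc1 was at 58.0, 161 and 580 CPM, against 55.2, 95.5 and 154 CPM in the parenchyma. Its excess was therefore large in both females and slight in the NV male. Spp1 was at 25.8, 37.0 and 20.4 CPM in the upper airway against 125, 174 and 89.8 CPM in the parenchyma, so it was lower in each of the 3 mice without overlap. Abcg1 was likewise lower in each, at 21.6, 23.8 and 24.7 CPM against 51.6, 66.3 and 87.0 CPM. Plin2 was at 70.4, 154 and 337 CPM against 102, 125 and 169 CPM, lower in the NV male and higher in both females. Apoe was at 1374, 2234 and 1361 CPM against 1232, 1454 and 1182 CPM, higher in each.

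Of the 10 members 5 were called, where 41.5% of 13526 genes were: 3 were higher in the upper airway, as were 22.7% of all genes, and 2 lower, as were 18.8%. With edgeR, Apoc1 was higher at a log2 fold change of 1.42 (SE 0.27, adjusted p = 0.00200), Apoe at 0.76 (SE 0.14, adjusted p = 0.00168) and Plin2 at 0.75 (SE 0.22, adjusted p = 0.0206). Spp1 was lower at −1.78 (SE 0.11, adjusted p = 5.61e-06) and Abcg1 at −1.15 (SE 0.15, adjusted p = 0.000176). The other 5 were not called, from Fabp5 at 0.22 (SE 0.27) to Trem2 at −0.32 (interval −0.89 to 0.25), with Cd36 at 0.01 (interval −0.25 to 0.28). These values are relative to a scaling (TMM) that sets the middle of all genes near 0. With total UMIs alone, the median of all genes was −0.45, 1869 genes were called higher and 6970 lower in place of 3072 and 2540, and the calls of Plin2 (0.32) and Apoe (0.33) were lost while those of Apoc1 (0.99), Spp1 (−2.20) and Abcg1 (−1.57) held, and Trem2, Gpnmb, Cd36 and Lipa were called lower. Plin2 was also not called without the V female, at 0.37, or without the NV female, at 0.74.

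Lipid droplet genes were mostly higher in the upper airway. Of 14 lipid droplet and lipolysis genes 12 were called higher and 1 lower, led by Cidea (2.84), Plin5 (2.52) and Cidec (2.26), which code for proteins of adipocyte and muscle droplets. Uptake genes were higher in 6 of 11 cases and lower in 2, led by the adipocyte fatty acid binding protein gene Fabp4 (2.53), the acyl-CoA synthetase gene Acsl1 (2.26) and the lipoprotein lipase gene Lpl (2.25). Of 12 sterol genes 1 was higher, 4 were lower and 7 were not called, with a median log2 fold change of −0.05, and the share called was near that of all genes. The lower ones included Soat1 (−1.03), whose product esterifies cholesterol, and the lysosomal sterol carrier gene Npc2 (−0.66). With total UMIs alone, droplet genes were still higher in 10 of 14 cases and uptake genes in 6 of 11, and 9 of 12 sterol genes were lower. Lysosomal genes depended on this scaling, with 4 of 13 higher and 1 lower under TMM and 2 higher and 7 lower without it. The tissue markers moved with these genes: 8 of 8 tested adipocyte genes and 7 of 8 cardiac genes were higher, and of 10 alveolar macrophage genes 8 were lower, among them Ear1 (−1.75) and Chil3 (−1.72), and 1 was higher, Mrc1 (0.69), which was not called with total UMIs alone. Neutrophil genes were lower in 4 of 4 cases. Of 10 interstitial macrophage genes 7 were higher, led by Folr2 (1.81) and Cd163 (1.70), and 2 lower, Lyve1 (−0.77) and Cx3cr1 (−0.69). Their part in the members' values was not tested.

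Whether the members went with macrophages was asked in parenchyma spots, thinned to 3000 UMIs each so that depth did not set which spots showed a marker. Spots with a UMI of Cd68, a lysosomal protein gene of macrophages, or Marco, a scavenger receptor gene of alveolar macrophages, numbered 105 and 36 in NV and 328 and 257 in V. Spots with neither numbered 501 and 273 in NV and 1035 and 1143 in V. The marker spots of each mouse were compared with its other spots in 1 fit.

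No member was called in macrophage marker spots. Of the 9 members with enough UMIs to be tested 0 were called, where 0.0411% of 9728 genes were, and 0 had an unadjusted p under 0.05, as 4.29% of all genes did. DESeq2 called none of them. Spp1 was at 140 and 194 CPM in marker spots of NV and 372 and 131 CPM in those of V, and at 129, 177, 359 and 92.4 CPM in the other spots of the same mice. It was higher in marker spots in all 4 mice, by a log2 fold change of 0.15 (SE 0.08, adjusted p = 0.9986). Gpnmb was at 25.4, 18.5, 20.3 and 15.6 CPM against 10.6, 7.33, 15.5 and 15.5 CPM, which gave 0.43 (SE 0.28, interval −0.12 to 0.98). The other members lay between −0.05 for Cd36 and 0.10 for Abcg1. Trem2 had too few UMIs: in the NV male 0 of its 18 UMIs in these spots fell in marker spots, which held 17.3% of all UMIs, and in the V male 25.8% of 31, against 24.1% of all UMIs.

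The marker spots were read against the other macrophage genes. Besides Cd68 and Marco, which defined the spots, 2 genes were called: Chil3 (0.48), a chitinase-like gene of alveolar macrophages, and Mpeg1, a macrophage pore protein gene that was singled out after its values were seen. The other 6 tested alveolar macrophage genes and 9 interstitial macrophage genes were not called. Lysosomal genes were not called in 13 of 13 cases, with Ctsd at 0.16 (SE 0.05, adjusted p = 0.825) the closest. Tyrobp, the signalling partner of Trem2, was at 0.21 (SE 0.09, adjusted p = 0.9986). The marker spots were not alike in the groups. Of them 35 and 10 held a UMI of Marco in NV, and 222 and 114 did in V. In the parenchyma Marco was at a log2 fold change of 1.63 (SE 0.35) in V over NV and Cd68 at −0.07 (SE 0.24), neither called. The marker effect was then tested for a difference between V and NV, on spots of unlike make-up. This test called 0 of 10 members, where 0.019% of 10515 genes were. Of the members 0 had an unadjusted p under 0.05, as 4.73% of all genes did. The difference was −0.33 (SE 0.25) for Plin2, −1.03 (SE 0.69) for Gpnmb and 0.05 (SE 0.22) for Spp1, and 5 of 10 members were positive. At 1000 UMIs per spot, with 3 mice and 8 members tested, all 8 were positive, with Plin2 at 0.57 (SE 0.72) and Spp1 at 0.52 (SE 0.71), and again none was called.

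Fabp5 was the member that went with type 2 cells, the alveolar cells that make surfactant. Parenchyma spots in the top 25% of their mouse by UMIs of Sftpc, the surfactant protein C gene, were compared with the rest. Fabp5 was at 466 and 476 CPM in these spots of NV and 486 and 379 CPM in those of V. In the other spots it was at 285 and 323 CPM in NV and 346 and 326 CPM in V. It was higher in the Sftpc-high spots of all 4 mice, least so in the V female, at a log2 fold change of 0.48 (SE 0.06, edgeR adjusted p = 2.74e-13). Fabp5 was the 1 of 9 tested members that was called, where 0.941% of 10099 genes were, 0.812% higher and 0.129% lower. Abcg1 was at −0.36 (SE 0.13, adjusted p = 0.266), with 44.2, 47.6, 46.1 and 66.7 CPM in Sftpc-high spots against 54.2, 58.9, 49.9 and 100 CPM. Plin2, Apoe and Spp1 lay between −0.08 and −0.02. Besides Sftpc, which defined the spots, the other 8 type 2 genes were called higher, and of the sterol genes Npc2 (0.55) and Soat1 (0.51) were too. With total UMIs alone Fabp5 was called too, at 0.45, while 71 genes were called higher and 31 lower in place of 82 and 13. Fabp5 was not called at 1000 UMIs per spot, at 0.33.

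**Figure D2:**
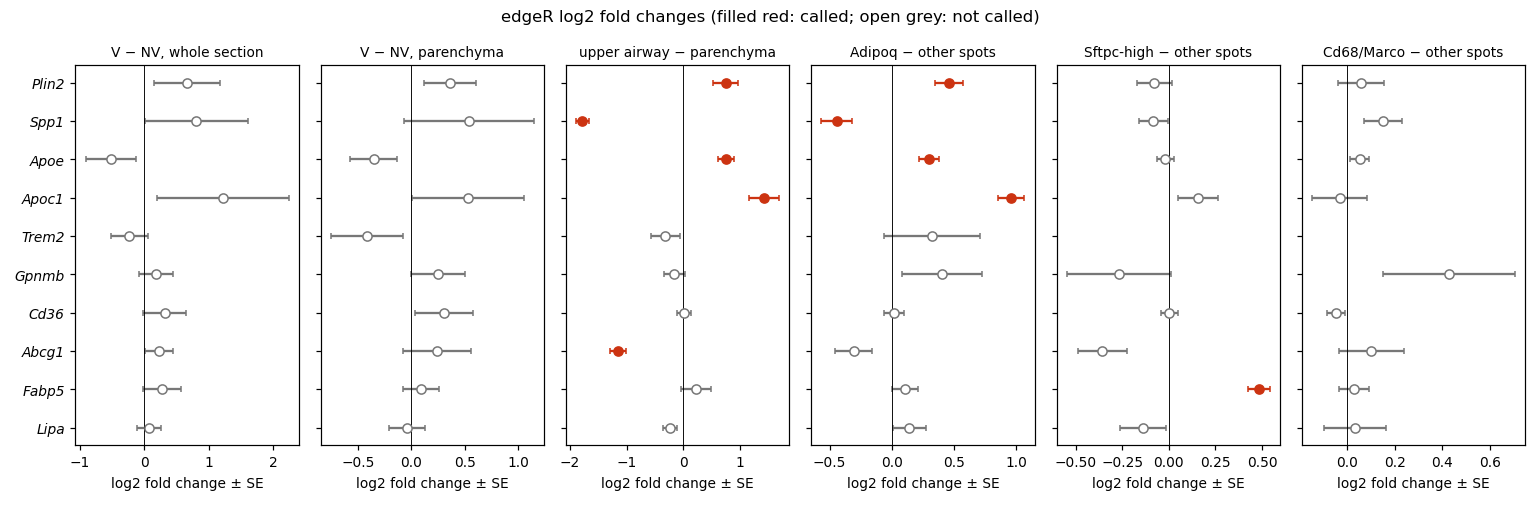
Log2 fold change (edgeR, horizontal axis, ± SE) of each gene in 6 comparisons, 1 panel each with its own scale. Filled red points were called and open grey points were not; Trem2 had too few UMIs in the last 2 panels. No gene was called in V against NV or in Cd68 or Marco spots, while Apoc1, Plin2, Apoe and Spp1 were called with the region and with Adipoq.

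Apoc1, Plin2, Apoe and Spp1 were called in spots with an Adipoq UMI when spots of both regions were used. Spots with a UMI of Adipoq, the adiponectin gene that adipocytes alone are known to express strongly, numbered 124 of 731 in the NV male, 261 of 421 in the NV female and 922 of 1829 in the V female. The V male had 7 such spots of 1363 and was left out of the test. Apoc1 was at 96.8, 128 and 285 CPM in Adipoq spots of these 3 mice and at 50.5, 64.6 and 158 CPM in the other spots. It was higher in each, at a log2 fold change of 0.96 (SE 0.11, edgeR adjusted p = 1.13e-06). Plin2 was at 105, 116 and 228 CPM against 102, 106 and 157 CPM, higher in each mouse but clearly so in the V female alone. Apoe was at 1642, 1788 and 1238 CPM against 1236, 1598 and 1151 CPM. Spp1 was lower in each mouse, at 69.9, 116 and 73.0 CPM against 122, 192 and 90.8 CPM.

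In this comparison 4 of 10 members were called, where 4.17% of 10811 genes were: 3 were higher, as were 3.73% of all genes, and 1 lower, as were 0.444%. The log2 fold changes were 0.46 for Plin2 (SE 0.11, adjusted p = 0.0156), 0.30 for Apoe (SE 0.08, adjusted p = 0.0328) and −0.44 for Spp1 (SE 0.12, adjusted p = 0.0395). DESeq2 called Apoc1 alone, as did edgeR without the V female, where Plin2 was at 0.15. The call of Spp1 was lost without the NV male (−0.39) and without the NV female (−0.36), and that of Apoe without the NV male (0.18). Apoe was also not called with total UMIs alone (0.22), when 331 genes were higher and 173 lower in place of 403 and 48. In parenchyma spots alone no member was called, where 2 of 10288 genes were (0.0194%), so the lack of calls is not particular to the members. The 4 values were nearer to 0 there, with Apoc1 at 0.06 (interval −0.19 to 0.31), Plin2 at 0.08, Apoe at 0.11 and Spp1 at −0.23.

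Apoc1 was highest in the spots richest in Adipoq UMIs. In the V female it was at 158 CPM in spots with 0 Adipoq UMIs, 191 CPM with 1, 346 CPM with 2 or 3 and 600 CPM with 4 or more. In the NV mice it was flat up to 3 Adipoq UMIs, between 37.5 and 94.1 CPM, and reached 381 CPM in the 21 spots of the NV male and 288 CPM in the 52 spots of the NV female with 4 or more. The same bin held the highest level of Plin2 (175 and 186 CPM in NV and 421 CPM in the V female), Apoe (2873, 2705 and 1621 CPM) and Fabp5 (413, 558 and 782 CPM). Spp1 was lowest or next to lowest there, at 15.9, 57.7 and 27.3 CPM. The V male, with almost no Adipoq, had 60.7 CPM of Apoc1 in its 1356 spots without it, near the 50.5 and 64.6 CPM of such spots in the NV mice.

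**Figure D3:**
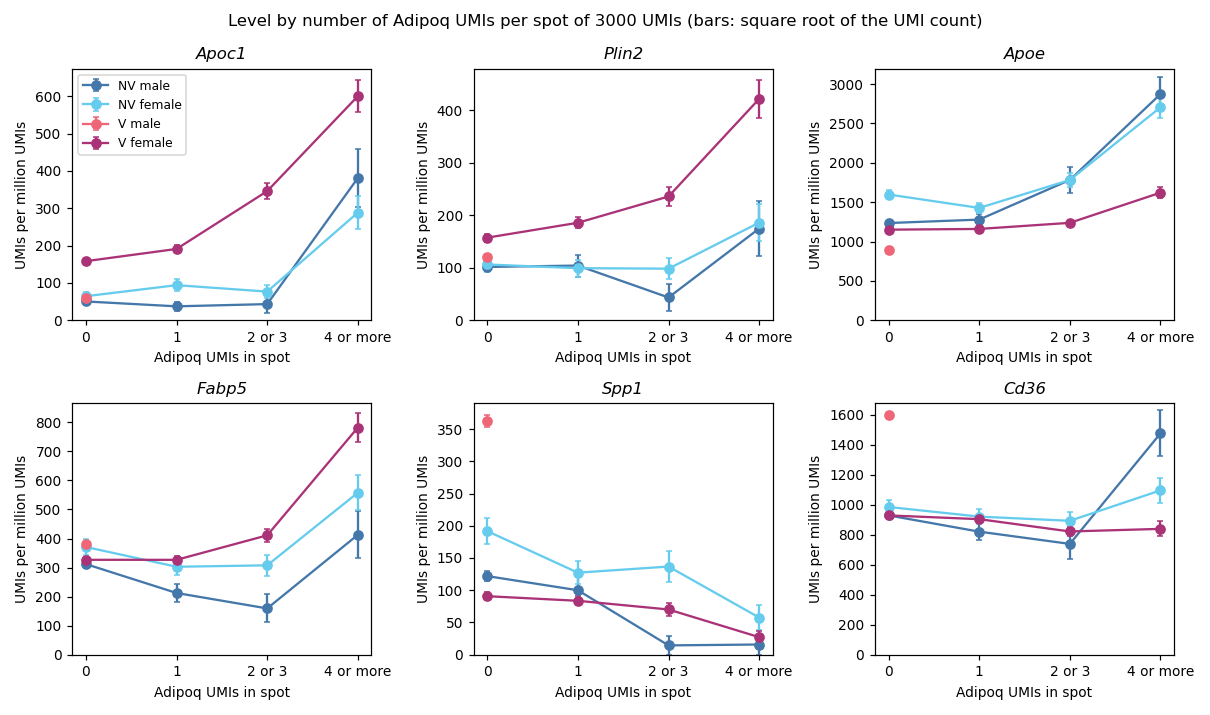
Level of 6 genes, in CPM, by the number of Adipoq UMIs in a spot of 3000 UMIs, 1 line per mouse; bars are the square root of the UMI count and cover counting error only. At 4 or more Adipoq UMIs Apoc1 reached 381 and 288 CPM in NV and 600 CPM in the V female, and the V male has 1 point.

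The V female had the largest share of its Apoc1 in few spots. In counts before thinning, the top 5% of its spots by Apoc1 (103 spots) gave 58.1% of its Apoc1 UMIs. The share was 31.01% in the V male and 32.6% and 42.5% in NV. Such shares also depend on the depth of the spots and on the number of UMIs of the gene. For Plin2 the top 5% of spots gave 42.3% in the V female and between 23.5% and 33.1% in the others. Since Ucp1 was abundant in this section alone, levels were also set against it, a choice made after its values were seen. Apoc1 was at 159 CPM in the 718 thinned spots of the V female without Ucp1, 155 CPM with 1 UMI, 186 CPM with 2 or 3 and 846 CPM in the 156 spots with 4 or more. Plin2 was at 169, 160, 197 and 415 CPM and Fabp5 at 309, 366, 371 and 622 CPM over the same bins. Apoe changed less, from 1169 to 1316 CPM, and Abcg1 was lowest in the last bin, at 23.5 CPM against 84.0 CPM in the first. The V female was thus the 1 mouse with abundant Ucp1 and the mouse with the highest Apoc1 and Plin2, and with 1 such section the part of this tissue and that of vaping in its levels cannot be told apart.

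Lipid droplet and uptake genes were higher in Adipoq spots too. Of 14 lipid droplet and lipolysis genes 9 were called higher and 0 lower, led by the adipocyte droplet genes Plin1 (1.52), Cidec (1.41) and Plin4 (1.29). Of 10 tested uptake genes 5 were higher, led by Fabp4 (1.70), Acsl1 (1.14) and Lpl (0.98). No sterol gene of 12 was called, and 1 of 13 lysosomal genes was, the cathepsin gene Ctsb (0.35). The macrophage genes Mrc1 (0.59) and Folr2 (0.81) were higher, each as the 1 call of its list, while 7 of 9 type 2 genes and 3 of 7 type 1 genes were lower. With total UMIs alone droplet genes were again higher in 9 of 14 cases and uptake genes in 4 of 10, but no interstitial macrophage gene was. Genes of other tissues went with Adipoq as well: 4 of 8 cardiac genes were higher, among them Ryr2 (0.49), 2 of 5 fibroblast genes, Dcn (0.78) and Lum (0.56), and 1 of 4 mesothelial genes, Upk3b (0.53), while 2 of 8 capillary genes were lower. With total UMIs alone 1 cardiac gene was called higher, and 1 fibroblast gene higher and 1 lower. Besides Adipoq, the 5 other adipocyte genes tested were all higher, with Cfd at 1.97 and Retn at 1.82, whereas neutrophil genes were not called in 3 of 3 cases. The part of these tissues in the members' values was not tested.

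Over single spots these relations were weak, and they are given as descriptions, since spots of a section share a library and their neighbours share tissue. Spearman's rho was taken over 731 and 421 spots in NV and 1363 and 1829 spots in V. Fabp5 with Sftpc had the highest mean of the 40 pairs of member and marker, at 0.16, with 0.34 and 0.15 in NV and 0.18 and −0.01 in V. Apoc1 with Adipoq was at 0.10 and 0.22 in NV and 0.02 and 0.19 in V, and Apoe with Adipoq at 0.17 and 0.22 in NV and 0.04 and 0.09 in V. Spp1 with Adipoq was negative in all 4 sections, from −0.15 to −0.03. With Cd68 the means lay between −0.03 for Trem2 and 0.04 for Apoe, and with Marco between −0.01 for Apoc1 and 0.04 for Lipa. That of Lipa came from the NV female, where rho was 0.19, and was at most 0.00 in the other mice. Between members, Apoe and Apoc1 had a mean of 0.11, from 0.06 to 0.18, and Plin2 had 0.06 with Apoc1 and 0.07 with Fabp5. Trem2 with Gpnmb lay between −0.03 and 0.02.

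**Figure D4:**
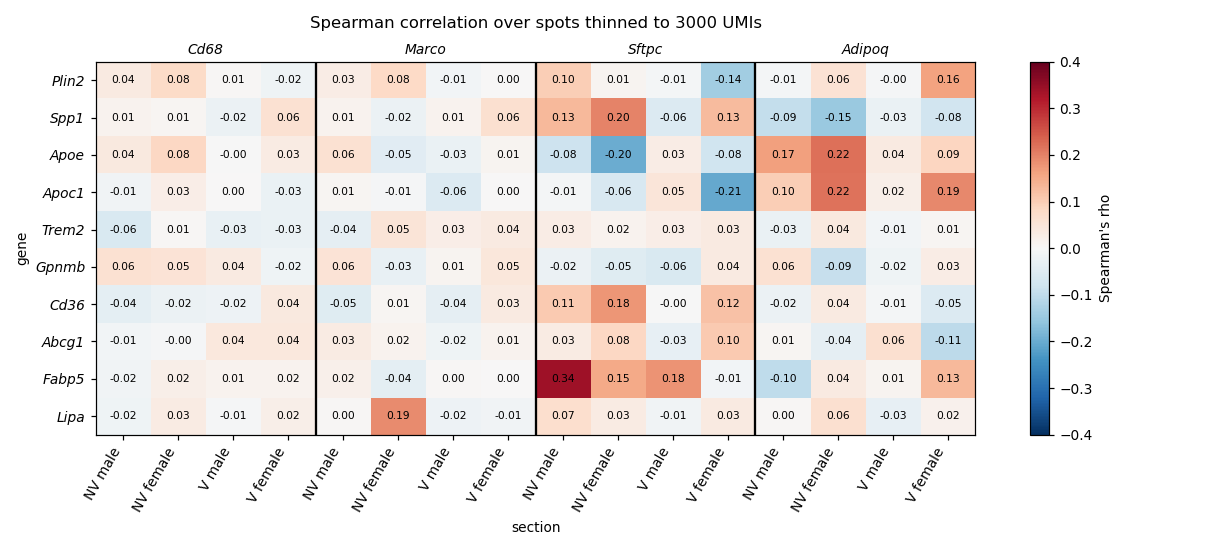
Spearman's rho over spots thinned to 3000 UMIs, for each of the 10 genes (rows) with Cd68, Marco, Sftpc and Adipoq (column blocks) in each of the 4 sections (columns), with the value in each cell and red for positive. The values with Cd68 and Marco are close to 0, apart from Lipa with Marco in the NV female (0.19), and the deepest red is Fabp5 with Sftpc in the NV male (0.34).

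The genes with the pattern most like each member were ranked by mean rho over the 4 sections, among 6946 genes with a UMI in at least 5% of spots of each. Apoc1 was closest to Fasn, the fatty acid synthase gene (0.18, from 0.04 to 0.27), and Apoe to C3, the complement gene (0.18, from 0.04 to 0.36). Scd1, the stearoyl-CoA desaturase gene, was among the 3 closest to Plin2 (0.08), Apoe (0.14), Apoc1 (0.14) and Fabp5 (0.14). Fabp5 was closest to Sftpc, followed by Scd1 and Sftpb (0.13). Spp1 and Cd36 were both closest to Epas1, a hypoxia-inducible factor gene of lung endothelium (0.16 and 0.15), and Cd36 was next closest to the endothelial genes Cldn5 and Calcrl (0.12 each). Abcg1 was closest to the surfactant gene Sftpa1 (0.10) over spots of both regions. Within the parenchyma, however, Abcg1 was at a log2 fold change of −0.36 (SE 0.13, not called) in Sftpc-high spots. The gene closest to Lipa was Adgra2 (0.07). Trem2 and Gpnmb were not themselves seen in 5% of spots of each section.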

How the data were processed

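Visium sections of 2 V and 2 NV mice were used, 1 male and 1 female per group, as the labels give them. The authors aligned the reads to mouse GRCm38 with Space Ranger, and what they deposited are raw UMI counts of each gene in each tissue spot. Their normalization and clustering in Seurat 4.0.3 are not part of these counts. The members, all gene lists and the region threshold were chosen with earlier results of these data known. Counts were summed per mouse, region or spot class and tested with edgeR 4.0.16 (TMM, filterByExpr, quasi-likelihood, Benjamini-Hochberg over all genes tested). The study's test over spots was not used, as spots are not replicates. P-values between groups measure the spread between 2 mice, and an exact permutation of 2 against 2 cannot reach 0.05. Those of regions and spot classes rest on 3 or 4 mice and on a spread moderated over all genes. A very small value there does not stand for many replicates. For marker classes each spot was thinned to 3000 UMIs (seed 11), which left out 111, 52, 202 and 224 spots of the NV male, NV female, V male and V female. Regions needed 50 spots and classes 20 spots per mouse.

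Named besides the 10 members were, per list and comparison, up to 3 called genes with the largest change or else up to 2 with the smallest p, and the 3 genes nearest to each member. Alternatives were DESeq2 1.42.0, its size factors, limma 3.58.1 on mean CPM plus 1, total UMIs alone, no filter, other depths and thresholds, and each mouse left out. The fits other than these alternatives were also run on simulated counts. These had a dispersion of 0.05, and 200 genes in them were shifted by 2 on the log2 scale. Such runs do not show whether smaller changes in V against NV could be found. Gene positions are those of GENCODE vM21 (GRCm38) and promoter windows those of RefSeq GRCm38.p6. Counting intervals are exact at 95%. The slide positions of spots were not used here.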

Additional observations from a re-analysis of the deposited data

Results flagged for a closer look

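Spp1 and Cd36 moved in opposite directions between the sexes. The log2 ratio of V over NV was 1.76 for Spp1 between the males and −0.94 between the females, and for Cd36 it was 0.82 between the males and −0.20 between the females. Each value rests on 1 mouse per sex and group, and the difference between the sexes was not tested. The V male section was nearly all parenchyma and the others were not, and within the parenchyma the opposite signs remained, at 1.46 and −0.96 for Spp1 and 0.70 and −0.20 for Cd36.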

How the results depend on the processing

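In V against NV, 0 members were called under each setting run with all 4 mice, the replicate block included (0 members and 0 genes called). Same numbers mark mice of the same sex and not paired mice. DESeq2 called 8 genes in whole sections and 9 in the parenchyma, no filter on low counts 5 genes in the parenchyma, and spots with no adipocyte UMI, with 1 NV mouse left, 9 genes. Leaving out 1 mouse gave 0 to 1 members in both sets of spots, 0 to 811 genes in whole sections and 0 to 1483 in the parenchyma, most without the V female and 21 and 291 without the V male. The lone mouse of a group was then assumed to vary like the others. Over these fits the log2 fold changes ran from −0.12 to 1.15 for Plin2, −0.80 to 1.55 for Spp1, −0.78 to 2.02 for Apoc1, −0.065 to 0.49 for Gpnmb, −0.067 to 0.62 for Cd36, −0.015 to 0.43 for Abcg1 and −0.094 to 0.21 for Lipa in whole sections, and from −0.69 to 1.205 for Spp1, −0.36 to 1.09 for Apoc1, −0.088 to 0.62 for Cd36, −0.24 to 0.61 for Abcg1 and −0.20 to 0.11 for Lipa in the parenchyma. Apoe, Trem2 and Fabp5 kept their direction in both sets of spots.

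Without the block for the mouse, 3 members were called between the regions (3921 genes, 29% of those tested), 0 with Sftpc (0 genes) and 0 with Adipoq (8 genes), and 2 genes with the macrophage markers. With total UMIs alone, a scaling chosen after seeing the data, 8839 genes differed between the regions. Leaving out 1 mouse gave 4 to 6 of 10 members there and 4244 to 5898 genes, 28.4% to 40.3% of those tested. Gpnmb then ran from −0.26 to 0.088, Cd36 from −0.015 to 0.040 and Fabp5 from −0.15 to 0.69. With Sftpc, DESeq2 called 33 genes and 1000 UMIs per spot 30 genes and 0 members, and without 1 mouse 46 (V male) to 89 genes were called. With Adipoq, DESeq2 called 87 genes (0.805%) and 1 of 10 members, and 1000 UMIs per spot 217 genes (3.22%) and 2 of 8 members. The parenchyma alone gave 2 genes and 0 members. Without 1 mouse the Adipoq calls ran from 1 of 9 members and 89 genes (1.01%, V female left out) to 3 of 10 members and 495 genes (4.11%). Cd36 ran from −0.022 to 0.034 and Fabp5 from −0.15 to 0.25. With the macrophage markers, 2 genes were called at 1000 UMIs (3 mice) and 11 with at least 2 UMIs (2 mice), and 0 differed between V and NV by DESeq2 or at 5000 UMIs per spot. Leaving out spots with Adipoq, also chosen after seeing the data, called 0 members and 3 genes with the macrophage markers.

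Members not called in the report changed sign. Between the regions Cd36 was at −0.040 without the filter and −0.42 with total UMIs alone, where Fabp5 was at −0.21. With Adipoq, Trem2 was at −0.14 at 5000 UMIs and Lipa at −0.11 at 1000 UMIs. Cd36 was there at −0.0060 without the filter, −0.047 in the parenchyma alone and −0.057 with total UMIs alone, and Fabp5 at −0.18 in the parenchyma alone. With the macrophage markers Gpnmb was at −0.021 at 5000 UMIs, Spp1 at −0.041 at 1000 UMIs and −0.16 with at least 2 UMIs, and Apoe at −0.027 and −0.10. At 1000 UMIs the difference of the marker effect between V and NV was positive in 8 of 8 members tested, against 5 of 10 as reported. The cause was not tested. Depth limits Trem2 most, with 58 to 221 UMIs per section.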
